A study of Mus musculus with 3 samples.

Results

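The genes examined here encode enzymes that make serine, or that turn threonine, serine and glycine into one-carbon units. They are *Tdh*, *Gcat*, *Gldc*, *Shmt1*, *Shmt2*, *Mthfd1*, *Mthfd1l*, *Mthfd2*, *Phgdh* and *Psat1*, taken by gene name from the authors' table of counts, and these 10 genes stood among 55421 named rows. A further row of the table also carries the name *Gcat* (ENSMUSG00000116378). It had 0 counts in every library, so the values below are those of ENSMUSG00000006378. PolyA RNA was sequenced in 3 libraries (replicates 1, 2 and 3) of ALSCs, stem cells derived in Activin A and LIF from epiblasts isolated at embryonic day 6.5. The embryos came from ICR females mated with GOF/GFP males, which have a mixed background and carry an *Oct4* GFP reporter without the proximal enhancer, and the cells were kept on fibronectin in N2B27 medium with Activin A and LIF. That medium also holds added non-essential amino acids, as the study's methods state, so all libraries come from cells with these in the medium. All 3 libraries share the parental cross and the medium. No other cell type was analysed here and no difference between cell types was tested. The labels do not say whether the libraries are separate lines or cultures of 1 line. A figure caption of the study speaks of 3 biological replicates for its RNA-seq data, without saying which. The p-values below ask only whether these libraries differ beyond counting error.

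As background, threonine dehydrogenase (*Tdh*) and 2-amino-3-ketobutyrate coenzyme A ligase (*Gcat*) split threonine in mitochondria into glycine and acetyl-CoA. Glycine then gives a one-carbon unit to tetrahydrofolate through the glycine cleavage system, and serine gives one through the serine hydroxymethyltransferases. Folate carries these units to purines, to thymidylate and to methionine, which is the source of the methyl donor S-adenosylmethionine. Naive mouse ESCs are known for high *Tdh* expression and for a need for threonine in the medium. Serine itself is made from a glycolytic intermediate by *Phgdh*, *Psat1* and *Psph*, and the transcription factor ATF4 is known to activate many genes of serine synthesis and mitochondrial folate metabolism.

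The total count on named genes was between 18037342 and 18724038 per library. On a gene of 1 kb, each count was worth 0.0534 to 0.0554 FPKM. Replicate 1 stood apart from the others, with 21.7% of its counts on its 100 most abundant genes against 19.0% and 19.3%, and with fewer counts of long genes. All 6 epiblast and pluripotency markers reached 1 FPKM in every library, against 1 of 6 naive markers. *Pou5f1*, which naive cells also express, was at 648 ± 25.3 FPKM (SD, n = 3). *Otx2* and *Fgf5*, which mark the epiblast after implantation, were low, at 5.08 ± 0.472 and 3.89 ± 0.0503 FPKM (SD, n = 3 for each). These levels lay above 35.5% and 27.5% of the genes that reached 1 FPKM. *Dnmt3b*, of the same marker list, was high instead, at 281 ± 43.7 FPKM (SD, n = 3), above 98.2% of those genes. The markers of this list were thus not low as a set. Of 8 fibroblast markers, *Thy1* and *Col1a1* reached 1 FPKM in every library and 4 others (*Col3a1*, *Postn*, *Lum* and *Dcn*) did not exceed 3 counts. *Col1a2*, with 32 to 65 counts, and *Pdgfra*, with 4 to 26 counts, lay between. The summed level of all 8 was 11.4, 13.1 and 12.3 FPKM in replicates 1, 2 and 3. All 6 hepatocyte markers, a cell type rich in enzymes of this pathway, were at or under 3 counts, and their summed level was between 0.0401 and 0.0776 FPKM. In such bulk libraries, fewer cells with a transcript and less of it per cell cannot be told apart.

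Among the 10 genes, 9 reached 1 FPKM in every library. For comparison, 20.1% of all named rows and 45.7% of protein-coding genes reached this level. The exception was *Tdh*, which on the TPM scale did reach 1 in every library. The median of the 10 mean levels was 54.1 FPKM, beside 8.21 FPKM for all 11125 genes that reached 1 FPKM. Together they made up 0.257%, 0.264% and 0.274% of all counts in replicates 1, 2 and 3. The levels ran from 173 FPKM for *Psat1* down to 0.525 FPKM for *Tdh*. FPKM scales counts by gene length in kilobases and by library total, and the gene length of the table was the merged length of all annotated exons for each of the 10 genes. The longest coding transcript is shorter, so levels per transcript length were higher for each gene.

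**Figure D1:**
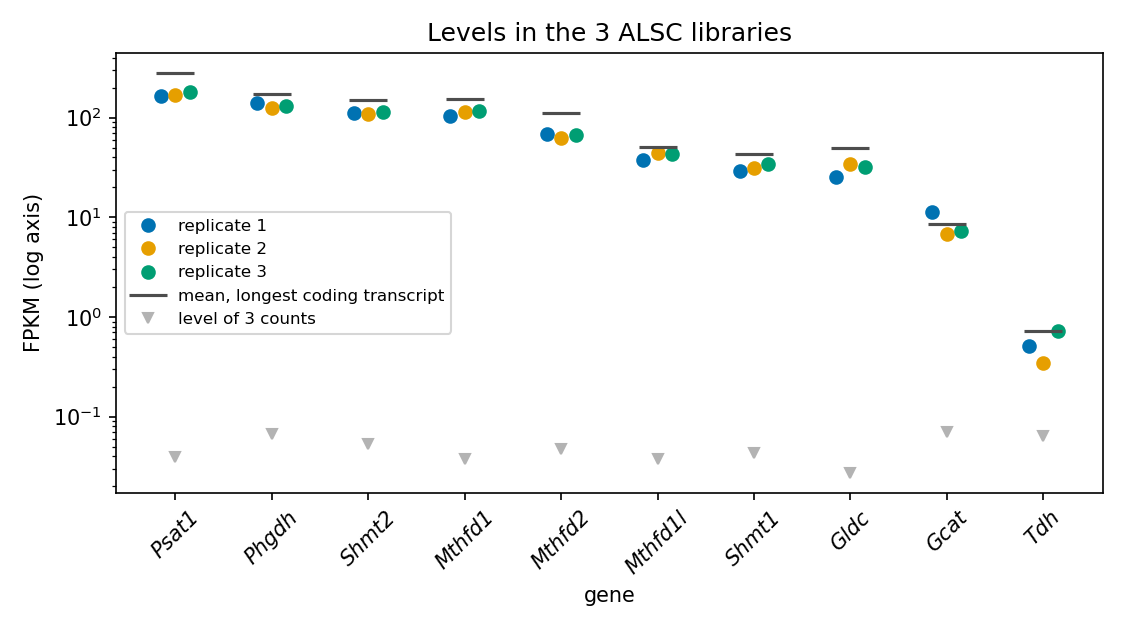
Level of each of the 10 genes in replicates 1, 2 and 3 (points, FPKM on a log axis), with the mean level computed from the longest coding transcript (bars) and the level that 3 counts would give in the shallowest library (triangles). 8 genes lie between 25.5 and 181 FPKM, *Gcat* lies near 10 FPKM and *Tdh* lies under 1 FPKM.

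*Tdh* and *Gcat*, the genes of threonine breakdown, had the lowest levels of the 10. *Tdh* (ENSMUSG00000021953; GRCm38 chromosome 14, 63492347 to 63509092), which encodes the first enzyme, had 24, 17 and 34 counts in replicates 1, 2 and 3. These correspond to 0.507, 0.347 and 0.721 FPKM, a mean of 0.525 ± 0.187 FPKM (SD, n = 3). The gene was thus detected in every library, above the 0.0636 FPKM that 3 counts would give, but stayed under 1 FPKM in each. Of the 50-base words of its longest coding transcript, 85.0% occurred in no other gene, and the processed pseudogene *Gm13929*, which holds the shared words, had 0 counts. *Gcat* (ENSMUSG00000006378; chromosome 15, 79030874 to 79038353), the enzyme of the next step, was at 11.3, 6.88 and 7.23 FPKM, a mean of 8.46 ± 2.44 (SD, n = 3). Its mean exceeded that of 51.0% of expressed genes, meaning those that reached 1 FPKM in every library. *Gcat* was higher than *Tdh* in all 3 libraries, with a mean ratio of 17.4 ± 6.45 (SD, n = 3). The row with the same name overlaps 47.5% of the exon bases of *Gcat* on the same strand. How reads that fit both rows were counted is not given in the sources used here, so the level of *Gcat* is uncertain.

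*Gldc* (ENSMUSG00000024827; chromosome 19, 30098447 to 30175429) encodes the glycine decarboxylase of the glycine cleavage system. It was at 25.5, 34.2 and 32.0 FPKM in replicates 1, 2 and 3, a mean of 30.6 ± 4.53 (SD, n = 3), above 82.8% of expressed genes. Its partners in the system were all expressed. *Amt*, the aminomethyltransferase, was at 23.4 ± 0.916 FPKM, *Gcsh*, the lipoyl carrier protein, at 61.7 ± 5.27 FPKM, and *Dld*, the dihydrolipoamide dehydrogenase shared with other complexes, at 48.1 ± 2.45 FPKM (SD, n = 3 for each). The ratio of *Gldc* to *Tdh* was 50.3, 98.6 and 44.4 in the 3 libraries, where *Tdh* varied by 35.7% of its mean and *Gldc* by 14.8%. Of the 9 genes listed for threonine and glycine breakdown, 6 reached 1 FPKM in every library, and the serine dehydratase *Sds* was at or under 3 counts in each.

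Serine synthesis held the highest levels. *Psat1* (ENSMUSG00000024640; chromosome 19, 15904678 to 15947337), the phosphoserine aminotransferase, was at 167, 170 and 181 FPKM, a mean of 173 ± 7.45 (SD, n = 3), above 97.1% of expressed genes. *Phgdh* (ENSMUSG00000053398; chromosome 3, 98313170 to 98339990), the dehydrogenase that commits carbon to serine, was at 140, 124 and 132 FPKM, a mean of 132 ± 8.12 (SD, n = 3). The lowest library of *Psat1* lay above the highest of *Phgdh*. *Psph*, the phosphatase of the last step, was lower than both, at 23.8 ± 2.01 FPKM (SD, n = 3), and the ratio of *Phgdh* to *Psph* was 5.46, 5.71 and 5.47 in the 3 libraries. The level of *Phgdh* carries a limit, because only 36.9% of the 50-base words of its longest coding transcript occur in no other gene. The processed pseudogene *Gm7901* shares 933 of its 1844 words and had 601, 641 and 538 counts, against 6299, 5764 and 5914 for *Phgdh* itself. How reads that fit both genes were counted is not given, and the level of *Phgdh* is uncertain for that reason.

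Serine hydroxymethyltransferase moves a one-carbon unit from serine to tetrahydrofolate. The mitochondrial enzyme *Shmt2* (ENSMUSG00000025403; chromosome 10, 127517123 to 127522444) was at 112, 108 and 115 FPKM, a mean of 111 ± 3.53 (SD, n = 3). The cytosolic enzyme *Shmt1* (ENSMUSG00000020534; chromosome 11, 60788104 to 60811718) was at 29.3, 31.0 and 33.9 FPKM, a mean of 31.4 ± 2.33 (SD, n = 3). The mitochondrial form was the more abundant in every library, with a ratio of *Shmt2* to *Shmt1* of 3.82, 3.47 and 3.38. This ratio within a library does not depend on library size, and it stayed at 3.55 when the longest coding transcript gave the length. *Shmt1* shares 184 exon bases with *Smcr8* on the opposite strand, and *Shmt2* shares 32 with *Ndufa4l2*. No source used here says that strand was used in counting, and without it reads from these bases cannot be told apart.

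The next steps differ between compartments. The cytosol has a single trifunctional enzyme, encoded by *Mthfd1* (ENSMUSG00000021048; chromosome 12, 76255298 to 76319803), which was at 104, 114 and 116 FPKM, a mean of 111 ± 6.43 (SD, n = 3). In mitochondria the work is divided between *Mthfd2* (ENSMUSG00000005667; chromosome 6, 83305691 to 83325908), the dehydrogenase and cyclohydrolase, and *Mthfd1l* (ENSMUSG00000040675; chromosome 10, 3973118 to 4167081), which releases formate. *Mthfd2* was at 69.1, 62.9 and 67.4 FPKM, a mean of 66.5 ± 3.20 (SD, n = 3), and *Mthfd1l* at 37.4, 44.4 and 43.5 FPKM, a mean of 41.8 ± 3.84 (SD, n = 3). Here the cytosolic gene was the higher one in each library. The ratio of *Mthfd2* to *Mthfd1* was 0.665, 0.551 and 0.584 in the 3 libraries. That of *Mthfd1l* to *Mthfd1* was 0.375 ± 0.0146 (SD, n = 3). *Mthfd2l*, the paralog of *Mthfd2*, was at 2.97 ± 0.0684 FPKM (SD, n = 3).

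In the order of mean levels, most neighbours were apart in every library, and only the pairs *Shmt2* with *Mthfd1* and *Shmt1* with *Gldc* were not. *Shmt2* was above *Mthfd1* in 1 of 3 libraries and *Shmt1* above *Gldc* in 2 of 3, with overlapping ranges. With the longest coding transcript as the length, both pairs exchanged places and the order of the other genes was kept. *Mthfd1l* and *Gldc* then became neighbours, and their ranges overlapped (44.92 to 53.39 against 41.24 to 55.34 FPKM). The levels on that scale were 281 FPKM for *Psat1*, 173 for *Phgdh*, 152 for *Mthfd1*, 151 for *Shmt2*, 111 for *Mthfd2*, 50.2 for *Mthfd1l*, 49.4 for *Gldc*, 42.7 for *Shmt1*, 8.51 for *Gcat* and 0.730 for *Tdh*. None of these is a measure of enzyme amount or flux.

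The sequences in front of these genes were read from RefSeq on the build GRCm38.p6, as 250 bases before and 50 bases after an annotated start site. Promoters matched for 9 of the 10 genes, all but *Tdh*. The core of the ATF4 response element, TGATGNAA on either strand, was in none of their promoters, beside 3.97% of all 32851 promoters. It was in the promoters of 5 of 12 genes listed for the ATF4 programme (*Asns*, *Chac1*, *Trib3*, *Pycr1* and *Slc7a11*) and in that of *Slc1a4*, a serine transporter. The E-box CACGTG was in the promoter of *Gcat* only, beside 7.15% of all promoters. The CCAAT box was searched as CCAAT on either strand and was chosen after the sequences had been read. It was in 6 of the 9 (*Gldc*, *Shmt1*, *Mthfd1*, *Mthfd2*, *Phgdh* and *Psat1*), beside 37.4% of all promoters. A gene was counted if any of its promoters matched. The box was also in 8 of 9 genes listed for the methionine cycle and transsulfuration that have a promoter. It was in 8 of 12 genes of the ATF4 programme and in 1 of 7 transporters with a promoter. A match describes letters in this window, and does not show that a factor binds there. A lack of matches says nothing of sites outside the window. With a share of 3.97%, few matches to the ATF4 core would be found among any 9 promoters.

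Promoters are shown for both highest genes, *Psat1* and *Phgdh*, for *Mthfd2*, which like *Psat1* holds 3 CCAAT boxes, and for *Gcat*, with its E-box 2 bases past the start site. Capitals mark the CCAAT boxes and, in *Gcat*, the E-box. They lie at chr19:15925010-15925309 for *Psat1* (minus strand, the upstream of 2 annotated start sites), chr3:98339920-98340219 for *Phgdh* (minus strand), chr6:83317555-83317854 for *Mthfd2* (minus strand) and chr15:79030624-79030923 for *Gcat* (plus strand), each printed in the direction of transcription. The start sites of *Psat1* and *Mthfd2* in RefSeq lie inside the longer gene spans of the authors' table.
Psat1: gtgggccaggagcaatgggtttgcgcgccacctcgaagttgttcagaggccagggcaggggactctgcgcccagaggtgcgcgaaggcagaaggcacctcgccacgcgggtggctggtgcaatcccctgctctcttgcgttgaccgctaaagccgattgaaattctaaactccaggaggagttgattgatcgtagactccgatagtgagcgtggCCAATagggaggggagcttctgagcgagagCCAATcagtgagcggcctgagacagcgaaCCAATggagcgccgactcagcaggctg
Phgdh: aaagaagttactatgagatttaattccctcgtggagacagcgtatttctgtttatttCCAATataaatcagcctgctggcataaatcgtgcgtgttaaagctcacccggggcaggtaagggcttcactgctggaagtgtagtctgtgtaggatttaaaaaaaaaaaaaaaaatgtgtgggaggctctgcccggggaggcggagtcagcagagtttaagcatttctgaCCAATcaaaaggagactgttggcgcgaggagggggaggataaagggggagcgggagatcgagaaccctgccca
Mthfd2: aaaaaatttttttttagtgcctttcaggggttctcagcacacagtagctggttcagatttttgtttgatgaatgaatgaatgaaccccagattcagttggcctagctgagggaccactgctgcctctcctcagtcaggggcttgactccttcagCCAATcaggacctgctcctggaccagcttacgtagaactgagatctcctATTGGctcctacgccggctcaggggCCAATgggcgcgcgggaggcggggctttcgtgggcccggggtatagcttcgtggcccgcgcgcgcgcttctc
Gcat: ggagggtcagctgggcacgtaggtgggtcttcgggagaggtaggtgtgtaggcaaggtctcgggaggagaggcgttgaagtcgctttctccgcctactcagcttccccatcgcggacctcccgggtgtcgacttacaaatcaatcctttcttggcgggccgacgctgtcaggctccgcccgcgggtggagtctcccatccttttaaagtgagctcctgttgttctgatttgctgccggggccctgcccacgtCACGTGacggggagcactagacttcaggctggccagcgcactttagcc

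A chi-square test of homogeneity asked of each gene whether its counts differed between the 3 libraries beyond counting error. It covered 16944 genes that had 10 counts or more, with Benjamini-Hochberg adjustment. Of the 10 genes, 9 varied, beside 47.2% of all genes tested. The test depends on depth, since 87.2% of genes whose mean reached 2000 counts varied, and 8 of the 10 genes have such a mean. The share among these genes is therefore near what genes of their depth show. *Tdh* did not pass (adjusted p = 0.0731, chi-square test), with 17 to 34 counts. Of the 9, 5 were lower in replicate 1 than the mean of replicates 2 and 3 and 4 were higher. Of all genes tested, 23.7% varied and were lower in replicate 1. *Psat1*, among the 5, was close to that mean. The relative spread was between 3.17% of the mean for *Shmt2* and 14.8% for *Gldc* in the 8 abundant genes. It was 28.8% for *Gcat* and 35.7% for *Tdh*.

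Replicate 1 was compared with the mean of the other libraries on the scale of log2(CPM + 1) after TMM scaling. *Gcat* was higher in replicate 1 by 0.712 (adjusted p = 5.15e-16, chi-square test), with 486 counts against 307 and 311. *Phgdh* was higher by 0.201 and *Mthfd2* by 0.153, and *Gldc* fell by 0.305 (adjusted p = 8.20e-21, 3.63e-10 and 4.97e-21, chi-square test). *Psat1* differed by -0.00596, since its scaled level in replicate 1 lay between those of replicates 2 and 3, and each pair of libraries still passed (adjusted p = 0.0152 for 1 and 2, 0.00202 for 1 and 3 and 3.63e-08 for 2 and 3, chi-square test). These differences ran along with gene length. Over all genes whose mean reached 100 counts, the median difference was 0.386 in the shortest of 20 length groups and -0.513 in the longest. *Gcat* is the shortest of the 10 genes (2384 bases) and *Gldc* the longest (6091 bases). After removal of the trends on length and on GC content, *Gcat* was still higher by 0.586, while *Phgdh* moved to 0.110, *Mthfd2* to 0.0592 and *Gldc* to -0.145. The part that RNA quality or library preparation had in this was not tested. Without replicate 1, neither *Gcat* (adjusted p = 0.708) nor *Gldc* (adjusted p = 0.163) varied in the chi-square test.

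**Figure D2:**
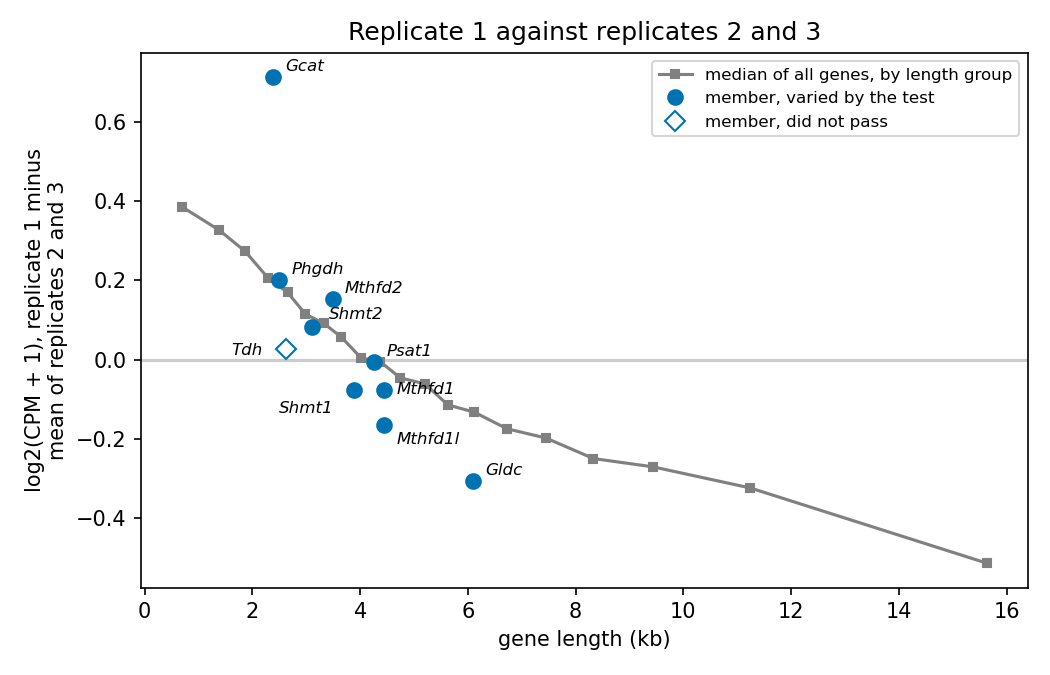
Difference of replicate 1 from the mean of replicates 2 and 3 on the log2(CPM + 1) scale (vertical axis) against gene length in kb (horizontal axis), for the 10 genes (circles, varied in the chi-square test; diamond, did not pass) and for all genes whose mean reached 100 counts (squares, medians of 20 length groups). *Gcat*, at 0.712, lies above the line of medians, and *Gldc*, at -0.305, lies below it.

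Replicates 2 and 3 resembled each other more closely, and 8.11% of 16062 genes varied between them. Of the 10 genes, 5 varied, namely *Psat1*, *Phgdh*, *Shmt2*, *Mthfd2* and *Shmt1*. All 5 were lower in replicate 2, which held for 5.03% of all genes tested and for 20.5% of genes whose mean reached 2000 counts. The differences were small and much alike. On the log2(CPM + 1) scale, replicate 2 minus replicate 3 was -0.109 for *Psat1*, -0.113 for *Phgdh*, -0.112 for *Shmt2*, -0.122 for *Mthfd2* and -0.149 for *Shmt1* (adjusted p = 3.63e-08, 0.000936, 0.000514, 0.00316 and 0.00920, chi-square test). The cytosolic *Mthfd1* differed by -0.0391 and *Mthfd1l* by 0.00587, and neither passed (adjusted p = 0.269 and 0.954, chi-square test). *Psph* was also lower in replicate 2, at -0.172 (adjusted p = 0.00681, chi-square test), so that all 3 genes of serine synthesis moved the same way between these libraries. Of the 12 genes of the ATF4 programme, 2 varied, *Atf4* itself at -0.125 and the asparagine synthetase *Asns* at -0.197 (adjusted p = 2.32e-07 and 1.68e-11, chi-square test). Both were lower in replicate 2. The pluripotency genes *Pou5f1*, *Sox2* and *Nanog* were lower there as well. Other genes of the pathway went the other way. Of 3 transporters of serine, glycine and threonine that varied, *Slc1a5* (0.103) and *Slc38a2* (0.127) were higher in replicate 2 and 1 was lower. Of 3 genes of the methionine cycle and transsulfuration that varied, *Mat2a* was higher in replicate 2, at 1.37, and 2 were lower. With 1 library on each side, these values compare libraries, not conditions.

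**Figure D3:**
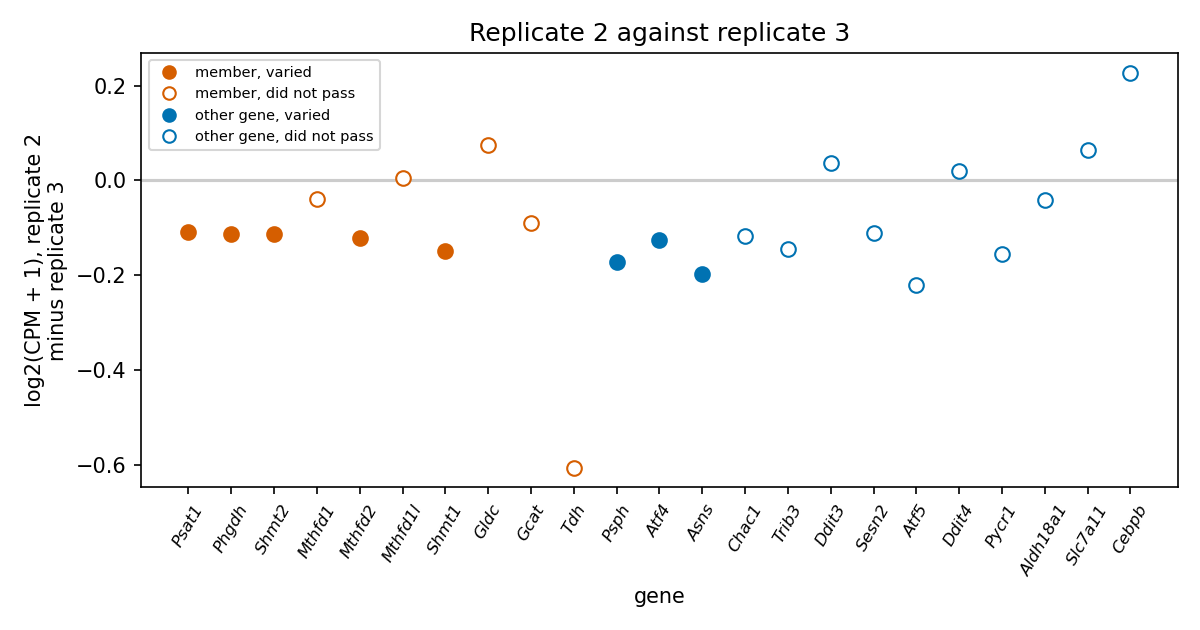
Difference between replicates 2 and 3 on the log2(CPM + 1) scale for the 10 genes (orange), *Psph* and the 12 genes of the ATF4 programme (blue), with filled points for genes that varied in the chi-square test. The 8 filled points all lie below 0, between -0.109 and -0.197.

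The steps around the 10 genes were described from lists of the pathway. Of 16 genes of the folate cycle, 14 reached 1 FPKM in every library, with a median of 13.8 FPKM. *Tyms*, the thymidylate synthase, was at 17.9 ± 0.568 FPKM (SD, n = 3), below *Shmt1* and *Mthfd1l*. *Ftcd*, an enzyme of histidine breakdown in liver, had no count, which allows up to 0.0521 FPKM. Of 5 genes of folate uptake, 2 reached 1 FPKM, the reduced folate carrier *Slc19a1* being the highest at 7.21 ± 0.340 FPKM. *Slc25a32*, the mitochondrial folate carrier, was at 0.365 ± 0.144 FPKM from 22, 53 and 47 counts, far below the mitochondrial enzymes that it serves.

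In the methionine cycle and transsulfuration, 7 of 11 genes reached 1 FPKM in every library, with a median of 4.52 FPKM. *Ahcy*, which clears S-adenosylhomocysteine, was the highest at 109 ± 7.06 FPKM (SD, n = 3), a level like that of *Shmt2* and *Mthfd1*. *Mtr*, the methionine synthase that joins the folate and methionine cycles, was at 5.68, 10.1 and 11.0 FPKM in replicates 1, 2 and 3. It is long (8524 bases) and was lowest in replicate 1, where long genes had fewer counts, and with the trends removed it was still lower there, at -0.564 on the log2 scale. Of the S-adenosylmethionine synthetases, *Mat1a*, the liver form, was at 0.184 ± 0.0202 FPKM (SD, n = 3). *Mat2a*, the form used outside the liver, was at 8.75, 15.0 and 5.59 FPKM, with 710, 1261 and 452 counts. It was highest in replicate 2 and lowest in replicate 3, a pattern that none of the 10 genes followed. The liver enzymes *Bhmt*, *Bhmt2* and *Gnmt* had at most 3 counts in any library. *Atf4*, the transcription factor, was at 231 ± 24.2 FPKM and *Asns* at 120 ± 8.96 FPKM (SD, n = 3 for each), and 11 of the 12 genes of the ATF4 programme reached 1 FPKM in every library.

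**Figure D4:**
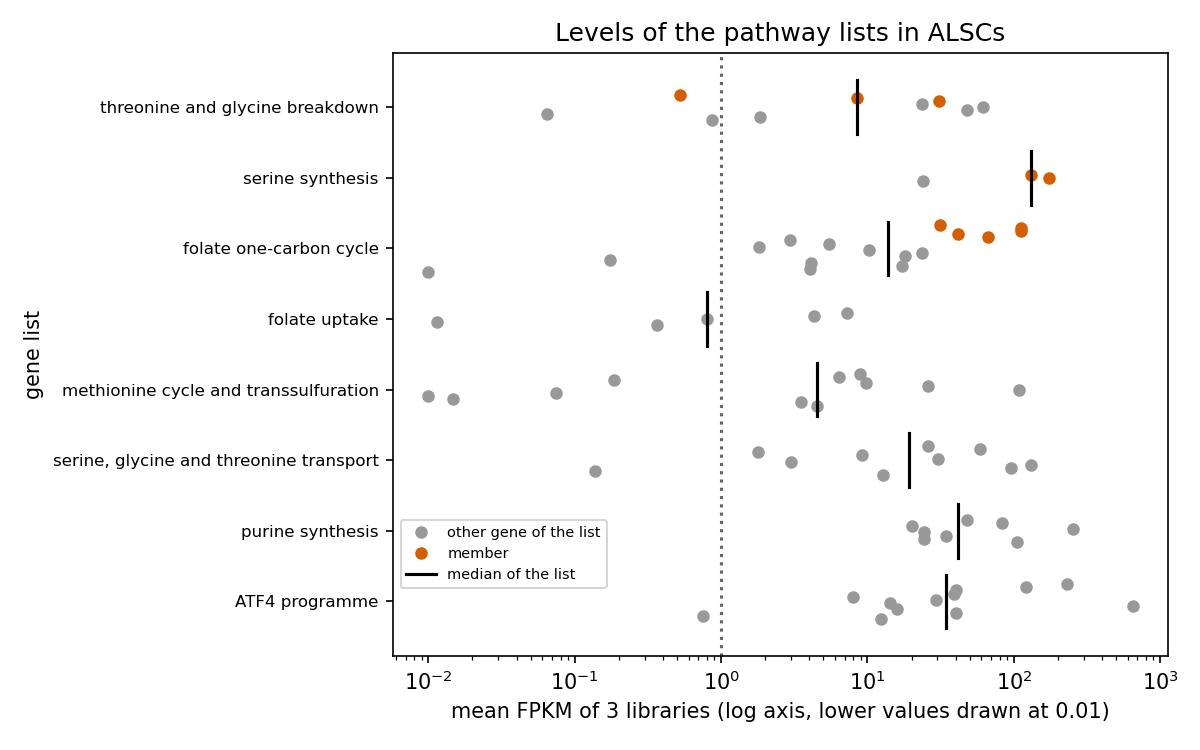
Mean level of each gene of 8 pathway lists (points, FPKM on a log axis; values under 0.01 are drawn at 0.01), with the 10 genes in orange, other genes in grey, the median of each list as a bar and 1 FPKM as a dotted line. All 3 genes of serine synthesis lie above 20 FPKM, and *Tdh*, at 0.525 FPKM, is the only one of the 10 genes left of the line.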

How the data were processed

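RNA of 3 ALSC libraries was sequenced as paired-end reads on polyA-selected TruSeq libraries. According to the study's methods, the reads were mapped to GRCm38, and the submitters' processing notes name HISAT2 2.0.5. The counting program and its handling of strand and of reads with several matches are not given in the sources used here. The authors deposited raw counts per gene, without normalization, with each gene's position and length. The table's 3 other columns of counts match no sample of this series and were not used.

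The 317 rows without a gene name held 0.165% to 0.182% of the counts and entered neither library sizes nor tests. Library totals on named genes were 18037342 to 18724038. FPKM was computed from the deposited counts, the table's length and these totals, and no pseudocount was added. Libraries were scaled with edgeR's TMM factors (0.968, 1.02 and 1.01). A chi-square test for homogeneity, with calls at an adjusted p under 0.05, compared the counts of genes with at least 10 counts in total. It covers counting error only, and reads counted without molecular identifiers may be copies of 1 molecule. The test was run on simulated counts first. With 1 condition there was no contrast for the authors' edgeR comparison between cell types, and no permutation test between groups was possible. Lengths of coding transcripts, GC content and shared 50-base words came from GENCODE M21 on GRCm38, whose gene spans matched the table for the 10 genes. Gene spans are given as in the authors' table.

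The 10 genes and the pathway lists were chosen with earlier results of these data known. Genes named beside the 10 were each list's highest and lowest members, neighbouring steps of the route, and those a count singles out. One neighbouring gene is not reported here. The CCAAT box and the background of genes whose mean reached 2000 counts were added after seeing the data. The alternatives covered length, library size, unit, filter, thresholds, pseudocount and leaving out each replicate. Scaling used edgeR 4.0.16 and DESeq2 1.42.0 under R 4.3.3. The rest used SciPy 1.17.1 and NumPy 2.4.6 under Python 3.11.15, with matplotlib 3.10.9 for plots and pandas 2.3.3 for tables.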

Additional observations from a re-analysis of the deposited data

How the results depend on the processing

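No paired analysis was possible because only 1 condition was analysed here. The count of 9 variable genes was 9 with DESeq2's size factors, with total counts and without a filter on low counts, and lay between 5 and 8 when 1 replicate was left out, the lowest without replicate 1. The genes called between replicates 2 and 3 numbered 5, or 6 with total counts, in alternatives chosen after seeing the data. With the longest coding transcript as the length, the ratio of *Mthfd2* to *Mthfd1* moved to 0.732, that of *Mthfd1l* to *Mthfd1* to 0.329, that of *Phgdh* to *Psat1* to 0.618 and that of *Phgdh* to *Psph* to 4.84, all keeping their direction. *Tdh*, at 0.525 FPKM, was at 0.730 FPKM with that length and at 1.45 on the TPM scale, a change of unit that raised *Psat1* to 478 and put all 10 genes at 1 or more in every library. The call of *Shmt1* was lost without replicate 3 (adjusted p = 0.972, chi-square test) and that of *Shmt2* without replicate 2 (adjusted p = 0.428). No called value changed sign among the alternatives run. At 17 to 34 counts, depth limits what can be said of *Tdh*.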

Other observations

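Purine synthesis, which uses 10-formyltetrahydrofolate made by *Mthfd1*, was expressed throughout. All 8 genes of that list reached 1 FPKM in every library, with a median of 41.4 FPKM. *Paics*, which carries a carboxylase and the step after it, was the highest at 253 ± 10.2 FPKM (SD, n = 3). *Pfas*, the formylglycinamidine synthase, was the lowest, at 15.0, 23.3 and 21.8 FPKM in replicates 1, 2 and 3, and is a long gene (7933 bases). The E-box CACGTG was in the promoters of *Paics*, *Atic* and *Impdh2*, 3 of the 7 genes of that list with a promoter, beside 7.15% of all promoters.

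Of the 10 transporters listed for serine, glycine and threonine, 9 reached 1 FPKM in every library, with a median of 19.3 FPKM. *Slc7a5*, a subunit of the carrier of large neutral amino acids, was the highest at 130.5 ± 19.8 FPKM (SD, n = 3). *Slc1a5*, which carries glutamine, serine and threonine among others, was at 59.0 ± 5.59 FPKM, and *Slc1a4*, a carrier of alanine, serine and threonine, at 25.9 ± 2.15 FPKM (SD, n = 3 for each). *Slc7a10* was at 0.138 FPKM, from 7, 6 and 3 counts.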
